A study of Mus musculus with 8 samples.

Results

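The mammalian circadian clock was examined in sorted cells of renin lineage (CoRL) through 10 genes: Arntl, Clock, Per1, Per2, Per3, Cry1, Cry2, Nr1d1, Nr1d2 and Dbp. The members were chosen by gene symbol, and the array carried 17 probes for them among 25697 probes in all. Averaging the probes of each gene gave 10 members among 16593 genes. All 8 animals were Ren1cCre×Rs-ZsGreen-R mice, in which Cre driven by the renin regulatory region opens a ZsGreen reporter for good. The fluorescent gate therefore takes cells that make renin together with cells that once made it. The uninjured group held 4 age-matched mice that received no antibody. The day 5 FSGS group held 4 mice given sheep antibody against the glomerulus by intraperitoneal injection, as 2 doses of 12 mg per 20 g of body weight set 24 h apart, which depletes podocytes abruptly. These mice were killed 5 days after the second dose. Ages, sexes and the hour of death or of the light cycle were not given in the sources used here. Transcripts of each mouse were measured on 1 Illumina array (MouseRef-8 v2.0, a bead array with a single colour) after digestion of the kidney cortex, cell sorting and RNA amplification.

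The clock is a loop of transcription and delayed repression that runs in nearly every cell with a period of about a day. The proteins CLOCK and BMAL1 (the product of Arntl) bind E-box sequences as a pair and switch on the Per, Cry, Nr1d and Dbp genes. PER and CRY proteins return to the nucleus and block that pair, while REV-ERBα and REV-ERBβ (the products of Nr1d1 and Nr1d2) repress Arntl. In the kidney this loop is known for daily rhythms in filtration, sodium handling and blood pressure. The amount of each clock transcript depends strongly on the hour at which a tissue is taken, and Per1 is in addition induced within a short time by glucocorticoids and other stimuli.

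Probes above background (detection p under 0.01) numbered 5793 to 12052 on the uninjured arrays and 11153 to 11700 on the day 5 arrays. Uninjured replicate 1 lay lowest and detected 3 of the 10 clock genes, against 7 or 8 on each other array. Day 5 FSGS replicate 3 stood nearest to the uninjured mice in several of the marker lists given below. In the endothelial and podocyte lists it stood farthest above them instead. Of 14 measured genes of renin cells and vascular smooth muscle, Acta2, Rgs5 and Nr2f2 were detected on every array. Tagln, Cnn1, Pdgfrb, Tbx18 and Foxd1 were detected on none, and renin itself was not analysed here. Of the 14, 0 were called, and by the rule for named genes Des differed by 1.51 (adjusted p 0.0490 by limma) and Mylk by -0.97 (0.0910). In such sorted samples, fewer cells of a type and less RNA per cell cannot be told apart.

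The RefSeq promoter table (GRCm38.p6) held 13 start sites for 9 of the 10 members, and Per2 had no entry. The 250 bases before each start were searched on both strands for 5 short sequences linked to the control of clock genes. These were the E-box CACGTG and the E'-box CACGTT, bound by CLOCK and BMAL1, and the D-box (TTATGTAA or TTACGTAA), bound by DBP and its antagonist NFIL3. The others were the cAMP response element TGACGTCA and the core TAGGTCA bound by ROR and REV-ERB proteins. CACGTT reads AACGTG on the other strand. No matches in the members' windows overlapped. Shown here are the windows of the 2 genes with the largest differences between groups and of Cry2, with the matched letters in capitals, printed 5′ to 3′ on the strand of the gene.
Nr1d1, chr11:98775378-98775627, minus strand: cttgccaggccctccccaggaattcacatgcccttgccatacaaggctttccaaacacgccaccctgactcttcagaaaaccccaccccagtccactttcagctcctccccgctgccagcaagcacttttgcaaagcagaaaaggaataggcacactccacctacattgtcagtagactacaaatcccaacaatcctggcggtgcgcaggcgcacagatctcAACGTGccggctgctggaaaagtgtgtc
Per1, first start site, chr11:69098699-69098948, plus strand: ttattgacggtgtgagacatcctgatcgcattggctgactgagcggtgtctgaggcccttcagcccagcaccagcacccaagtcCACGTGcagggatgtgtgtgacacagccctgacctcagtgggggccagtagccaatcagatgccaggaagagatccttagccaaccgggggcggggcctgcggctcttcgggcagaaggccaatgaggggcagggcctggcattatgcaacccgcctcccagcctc
Cry2, chr2:92434070-92434319, minus strand: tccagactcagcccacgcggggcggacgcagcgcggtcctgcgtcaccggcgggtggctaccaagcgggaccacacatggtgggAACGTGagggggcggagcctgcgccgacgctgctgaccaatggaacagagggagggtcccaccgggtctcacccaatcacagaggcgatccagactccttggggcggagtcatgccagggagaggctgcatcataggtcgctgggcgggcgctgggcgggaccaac
The Nr1d1 match is an E'-box whose first base lies 28 bases before the start site. The Per1 match is an E-box beginning 166 bases before the start, and the Cry2 match is an E'-box beginning 166 bases before it. Cry1 held an E-box and an E'-box, beginning 60 and 79 bases before its start. Per3 held 2 D-boxes, beginning 205 and 158 bases before its start. In 8 of the 13 windows, which include every window of Arntl, Clock, Nr1d2 and Dbp, none of the letters were found. Among 32851 promoter windows of this length, 6.02% held the E-box, 3.85% the E'-box, 0.931% the D-box, 1.55% the cAMP response element and 2.23% the ROR core. A match describes the letters of this window only. Variants of these sequences and sites outside the windows were not searched, so a window without a match may still hold a site.

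Levels are given as normalized log2 intensities, in which 1 unit is a doubling, and differences as day 5 minus uninjured on the same scale. The comparison asked which clock genes differed in CoRL after podocyte loss. By limma, 0 of the 10 clock genes passed an adjusted p of at most 0.01, where 2.31% of all genes did (1.91% as higher and 0.398% as lower on day 5). The study used that threshold with another test, a Bayesian t-test. At an unadjusted p under 0.05 there were 2, Per1 and Nr1d1, or 20% of the members beside 30.5% of all genes. At an adjusted p of at most 0.05 there was 1, Nr1d1, beside 14.3% of all genes. The groups did not overlap for 1 member, again Nr1d1, while 20.0% of all genes had groups that did not overlap. Means were lower on day 5 for 6 of 10 members and for 55.3% of all genes. The median difference was -0.17 over the members and -0.03 over all genes. The median size of the difference was 0.30 and 0.23. Many of all genes were dim, and 6976 genes, with 7 of the 10 members among them, had detection throughout at least 1 group. Over these 6976 the median size was 0.45, above that of the members. By limma 52.3% of them had an unadjusted p under 0.05 and 28.3% an adjusted p of at most 0.05. The groups stood apart for 35.7% of them. The limma p-values set a group difference against the spread between mice within groups, estimated in part from all genes. A p that misses the threshold does not show that levels were equal.

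**Figure D1:**
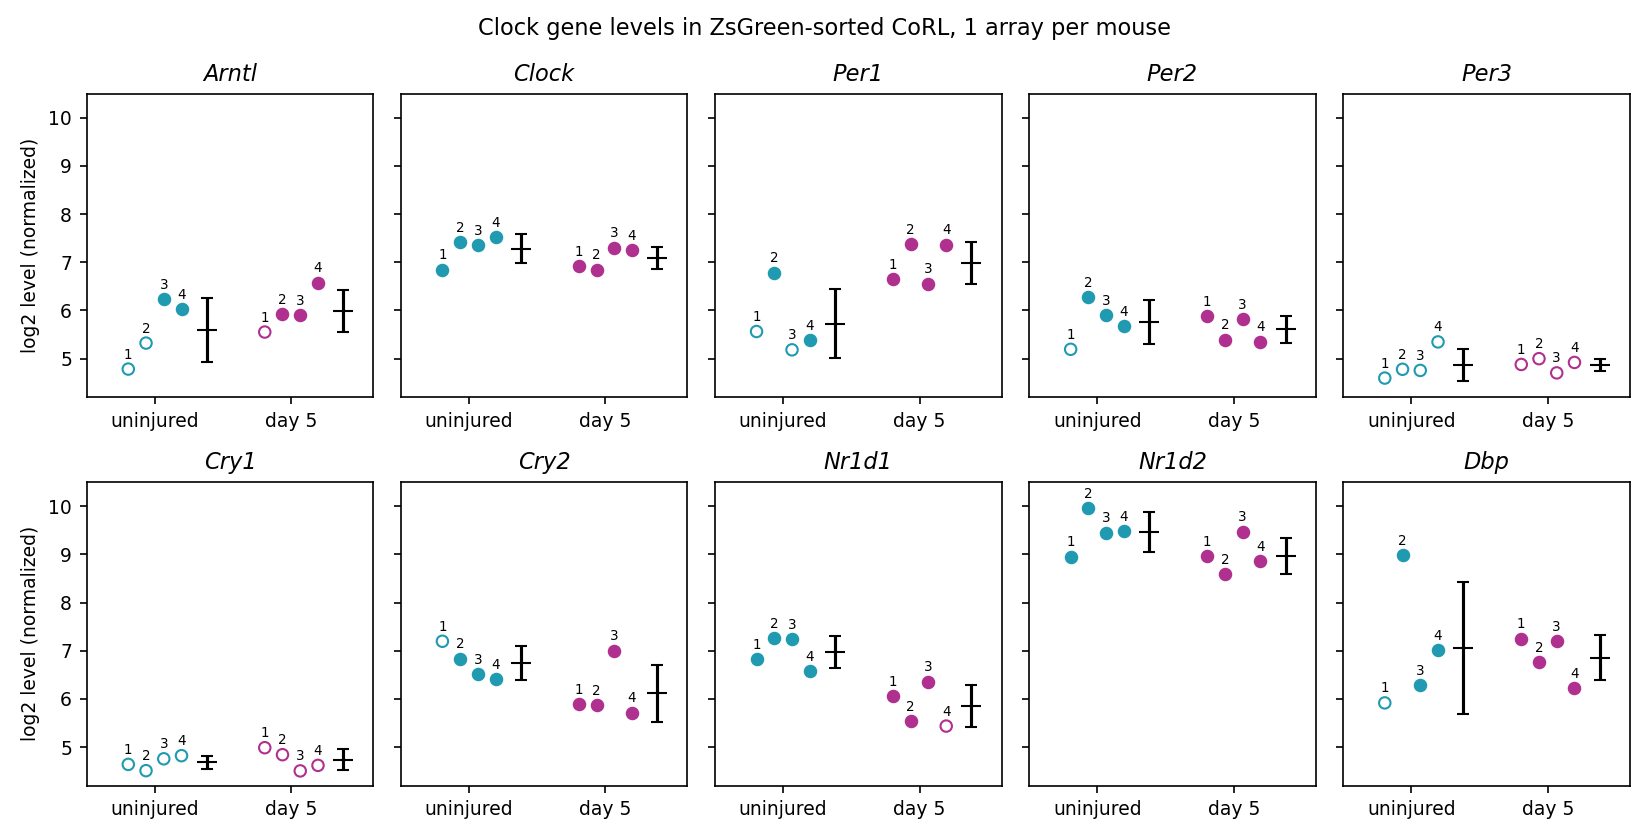
Normalized log2 level (vertical axis) of each of the 10 clock genes in 4 uninjured and 4 day 5 mice, 1 point per mouse with its replicate number. Open points were not detected on that array, and the black bar is the mean with 1 SD. The groups separate for Nr1d1, where the lowest uninjured mouse is at 6.58 and the highest day 5 mouse at 6.36.

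Nr1d1, which encodes the repressor REV-ERBα, was lower after injury. Its levels were 6.83, 7.26, 7.24 and 6.58 in uninjured replicates 1 to 4, and in day 5 FSGS replicates, taken in the same order, 6.06, 5.54, 6.36 and 5.44. The 4 values of each group follow this order throughout. Every day 5 mouse lay below every uninjured mouse, with replicates 2 and 4 lowest. The difference was -1.13 (SE 0.24, 95% interval -1.68 to -0.57), a level 2.18-fold higher without injury. Its adjusted p was 0.0222 by limma, which misses 0.01. The study applied that threshold to a Bayesian t-test, which as rebuilt here gave Nr1d1 an adjusted p of 0.00281 and called 1638 of all 16593 genes. Both of its probes were lower with groups that did not overlap, ILMN_1229091 with a difference of -1.28 (SE 0.29, adjusted p 0.0259 over probes, limma) and ILMN_2749669 with -0.98 (SE 0.27, adjusted p 0.0476). Nr1d1 was detected in 4 uninjured and 3 day 5 mice, and its lowest value, in day 5 FSGS replicate 4, was not detected. The dimmer probe, ILMN_2749669, was detected on 3 uninjured and 2 day 5 arrays, so part of the difference rests on values near background. Without day 5 FSGS replicate 3 the adjusted p of Nr1d1 was 0.00576 and the call was made, and over all omissions of 1 mouse it ran from 0.00576 to 0.0697. The fit without day 5 FSGS replicate 3 called 724 of all 16593 genes as lower.

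Nr1d2, its close relative REV-ERBβ, was detected on all 8 arrays. It stood at 8.95, 9.96, 9.45 and 9.48 in the uninjured mice and at 8.97, 8.58, 9.47 and 8.85 on day 5. Only day 5 FSGS replicate 3 reached the middle of the uninjured range, and uninjured replicate 1 lay within the day 5 range. The difference was -0.49 (SE 0.25, adjusted p 0.224 by limma), with both probes in the same direction, -0.58 and -0.40. The 95% interval ran from -1.06 to 0.07.

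Per1, which encodes a repressor of the CLOCK and BMAL1 pair, had the largest difference of the 10. The uninjured levels were 5.56, 6.78, 5.18 and 5.38, and the day 5 levels were 6.65, 7.37, 6.56 and 7.36. All 4 day 5 mice lay above 3 of the 4 uninjured mice, but uninjured replicate 2 lay above day 5 FSGS replicates 1 and 3. The difference was 1.26 (SE 0.37, 95% interval 0.42 to 2.10), 2.39-fold, at an adjusted p of 0.0549 by limma. It was positive in all 21 alternatives and leave-one-out fits, from 0.44 with the authors' table to 1.64 without uninjured replicate 2, and none gave an adjusted p within 0.01. The 2 probes differed by 1.22 (SE 0.44, adjusted p 0.106 over probes, limma) and 1.30 (SE 0.38, adjusted p 0.0595). The second, ILMN_2813487, was not well above background on any uninjured array and was on all 4 day 5 arrays, with group means of 5.40 and 6.70. Against the dimmest signal well above background, its day 5 level was at least 1.25-fold higher.

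Per2 and Per3 are the other period genes. Per2 was at 5.19, 6.27, 5.90 and 5.67 in the uninjured mice and at 5.87, 5.39, 5.82 and 5.35 on day 5, overlapping throughout. Its difference was -0.15 (SE 0.24, 95% interval -0.69 to 0.39, adjusted p 0.725 by limma). Of its 3 probes, 1 was detected on no array and the other two differed by -0.46 and 0.13, so they did not share a direction. Per3 was detected on no array, and its levels of 4.60 to 5.35 and 4.70 to 5.00 are background readings from which no difference is read.

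The cryptochromes repress the same pair together with the PER proteins. Cry1 was detected on no array, with background readings of 4.51 to 4.82 in the uninjured mice and 4.51 to 4.99 on day 5. Cry2 was at 7.20, 6.83, 6.51 and 6.41 in the uninjured mice and at 5.90, 5.87, 7.00 and 5.71 on day 5. The highest of these, in uninjured replicate 1, did not pass the detection threshold on its array. On day 5, replicates 1, 2 and 4 lay below every uninjured mouse, and replicate 3 lay above all but 1 of them. The difference was -0.62 (SE 0.30, 95% interval -1.31 to 0.08, adjusted p 0.213 by limma). Without day 5 FSGS replicate 3 it was -0.90 with an adjusted p of 0.0141, which still missed 0.01.

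**Figure D2:**
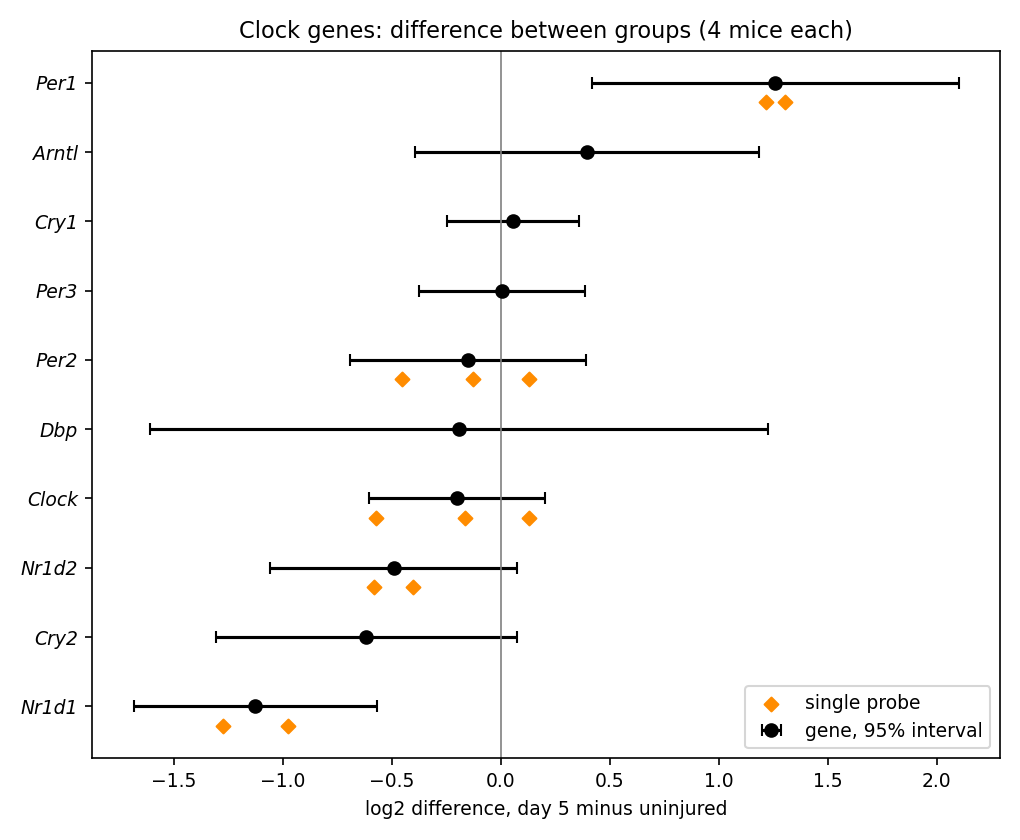
Difference in log2 level (horizontal axis, day 5 minus uninjured) for each clock gene, with 4 mice per group. Circles are genes with 95% intervals from limma and diamonds are the single probes of genes with more than 1. The intervals of Per1 (0.42 to 2.10) and Nr1d1 (-1.68 to -0.57) lie on opposite sides of 0, and the other 8 include it.

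Arntl and Clock encode the activating pair. Arntl was dim, detected in 2 uninjured and 3 day 5 mice, at 4.78, 5.32, 6.23 and 6.03 in the uninjured group and 5.55, 5.92, 5.90 and 6.58 on day 5. The groups overlapped, and the 2 lowest values came from the uninjured arrays with the fewest detected probes. The difference was 0.39 (SE 0.34, 95% interval -0.39 to 1.18, adjusted p 0.497 by limma). Arntl is the gene that the REV-ERB proteins repress, and its interval covers both a fall and a doubling.

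Clock, detected in every mouse, stood at 6.84, 7.41, 7.35 and 7.52 in the uninjured group and at 6.92, 6.84, 7.30 and 7.25 on day 5. It was the steadiest of the detected members, with a spread of 0.67 among uninjured mice and 0.46 on day 5. The difference of the averaged gene was -0.20 (SE 0.18, adjusted p 0.497 by limma). Its 3 probes disagreed. ILMN_2600964 put every day 5 mouse below every uninjured one, at a difference of -0.57 (SE 0.15, adjusted p 0.0378 over probes, limma), while ILMN_2589603 and ILMN_2610973 differed by 0.13 and -0.16 with overlapping groups. Of the 17 probes of the clock genes 0 passed 0.01, where 2.48% of all named probes did, and 3 had groups that did not overlap, all lower on day 5, the 2 of Nr1d1 and this one. Among all named probes 8.97% were lower without overlap, and 5.43% were lower at an adjusted p of at most 0.05, as these 3 were.

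Dbp, an output activator driven by CLOCK and BMAL1 and among the most strongly rhythmic transcripts known, varied most between mice. It was at 5.92, 8.98, 6.29 and 7.01 in the uninjured group and at 7.25, 6.76, 7.20 and 6.22 on day 5. Uninjured replicate 2 stood above all other mice, and the day 5 values fell inside the uninjured range. The uninjured mice spanned 3.07 log2 units, more than for any other member, and the day 5 mice 1.02. The difference of -0.19 (SE 0.62, adjusted p 0.874 by limma) therefore had the widest interval of the members, -1.61 to 1.23, and became 0.45 without uninjured replicate 2.

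Mice of 1 group differed from each other across several clock genes at once. Of the 8 members detected on any array, uninjured replicate 2 was the highest uninjured mouse for 5, namely Per1, Per2, Nr1d1, Nr1d2 and Dbp. These are targets of CLOCK and BMAL1, as is Cry2, which was highest in uninjured replicate 1, without being detected there. Uninjured replicate 1 was the lowest for 5, Arntl, Clock, Per2, Nr1d2 and Dbp, and it was also the array with the fewest detected probes. On day 5, replicate 3 was highest for Clock, Cry2, Nr1d1 and Nr1d2, and replicate 4 was lowest for Per2, Cry2, Nr1d1 and Dbp. The part of the lower detection on that uninjured array was not tested.

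The wider clock machinery was described by lists drawn up from textbook knowledge. A list of 13 further clock regulators measured held transcription factors together with Ciart, Cipc, Timeless and Tipin, which are not transcription factors. Of the 13, 0 were called, 7 had higher and 6 lower means on day 5, and the median difference was 0.04. Without day 5 FSGS replicate 3 there were 2 calls, Nfil3 and Timeless (adjusted p 0.00738 by limma), both higher, and 0 without any other single mouse. Leaving out day 5 FSGS replicate 3 raised the calls among all 16593 genes from 383 to 1931. The calls that it adds in each list are to be read beside that share. Nfil3, the repressor that competes with DBP at D-boxes, was at 7.67, 7.38, 7.41 and 7.63 in the uninjured mice and at 9.25, 9.22, 8.22 and 10.01 on day 5. All 4 day 5 mice were above the uninjured ones, by 1.65 (SE 0.33, adjusted p 0.0172 by limma), and among omissions of 1 mouse it was called only without day 5 FSGS replicate 3 (adjusted p 0.000927). Bhlhe40, which encodes the E-box repressor DEC1, was at 9.23, 10.17, 8.94 and 9.13 without injury and at 10.27, 10.21, 9.91 and 10.12 on day 5. As for Per1, uninjured replicate 2 reached the day 5 range, and the difference was 0.76 (SE 0.25, adjusted p 0.0825 by limma).

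The D-box activators related to Dbp and the Arntl activator Rora were picked after their values were seen. Tef differed by -0.54 with groups that did not overlap (SE 0.20, adjusted p 0.106 by limma), Hlf by -1.19 (SE 0.43, adjusted p 0.0996) and Rora by -0.75 (SE 0.29, adjusted p 0.129). None passed the threshold, and all 3 had their lowest level in day 5 FSGS replicate 4. That mouse had 6.68 for Tef, 4.94 for Hlf and 6.55 for Rora.

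**Figure D3:**
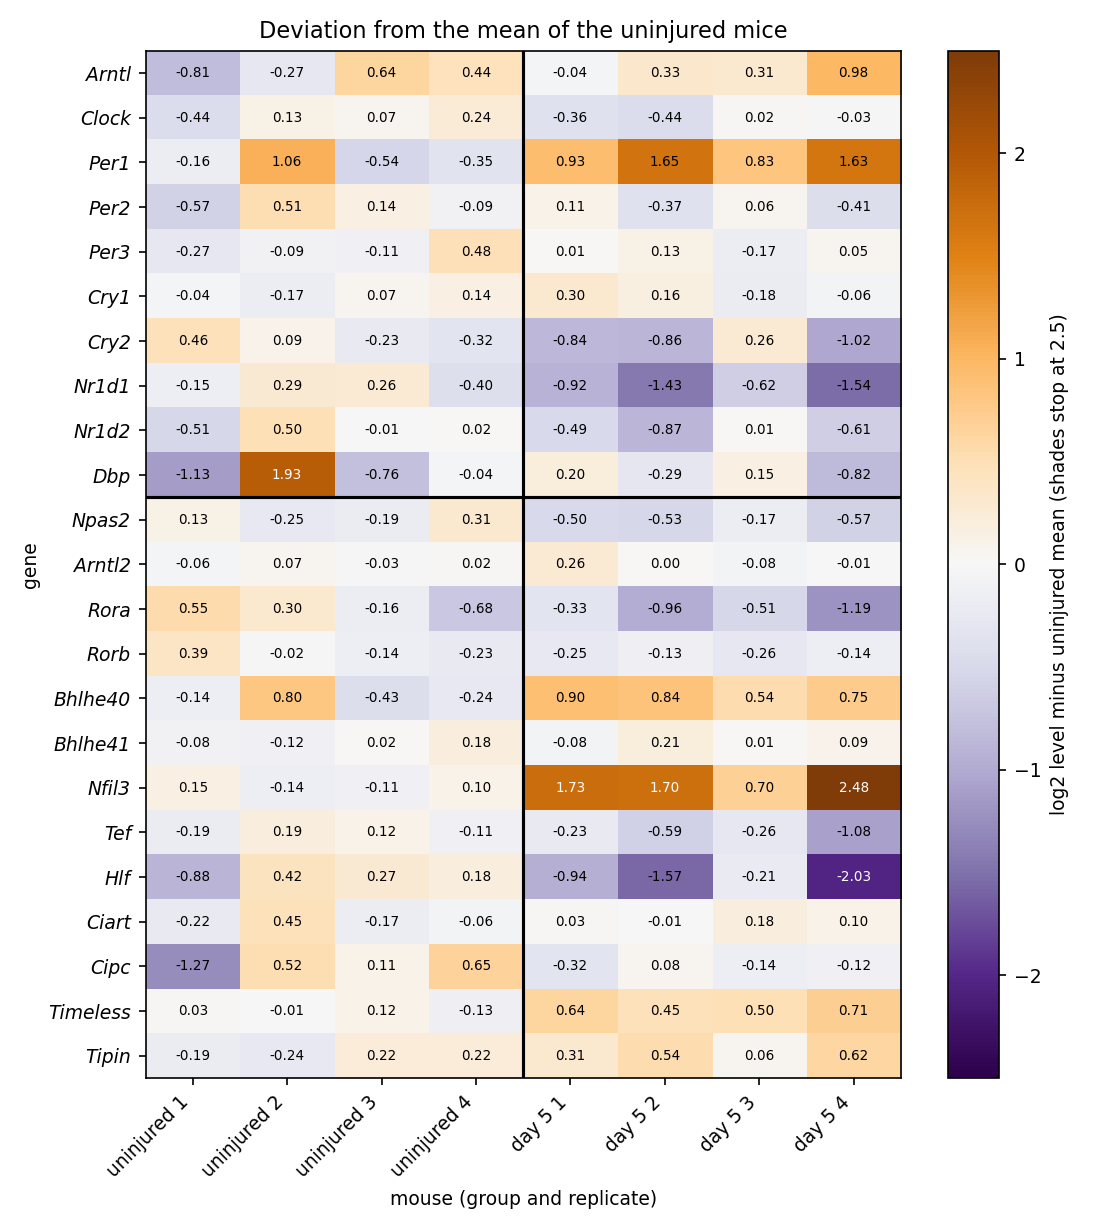
Log2 level minus the mean of the 4 uninjured mice (colour and printed number) for the 10 clock genes above the line and 13 further clock regulators below it, 1 column per mouse. Nfil3 and Per1 are above 0 in all 4 day 5 mice and Nr1d1 is below 0 in all 4, while uninjured replicate 2 has 1.06 for Per1 and 1.93 for Dbp.

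Enzymes that set the stability of PER and CRY proteins showed 1 called gene of 17 measured. Csnk1e, which encodes casein kinase 1 epsilon and phosphorylates PER proteins, was at 5.08, 5.12, 5.61 and 5.57 in the uninjured mice and at 6.84, 7.09, 6.40 and 6.98 on day 5. It rose by 1.48 (SE 0.19, adjusted p 0.00609 by limma) with groups that did not overlap. It was detected in 1 uninjured mouse and all 4 day 5 mice. Omitting day 5 FSGS replicate 3 kept the call (adjusted p 0.000878), and each of the 7 other omissions lifted the adjusted p above 0.01, to 0.0262 at most. Of the 17, 6 had higher and 11 lower means, with a median of -0.13. Without day 5 FSGS replicate 3 Prkaa2, a subunit of the kinase AMPK, was called as lower too (adjusted p 0.00507 by limma). In that fit 724 of all 16593 genes were called as lower.

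Of 15 chromatin cofactors of the clock 0 were called, 9 had higher and 6 lower means, and the median was 0.16. Without day 5 FSGS replicate 3 there were 3 calls, Ep300 (adjusted p 0.00938) and Ezh2 (0.00242) as higher and Ppargc1a (0.00339) as lower by limma, and 0 without any other single mouse. Of all 16593 genes, 1931 were called in the fit without day 5 FSGS replicate 3. Ppargc1a, a coactivator of ROR proteins at Arntl, was at 9.47, 9.88, 9.42 and 9.64 without injury and at 8.50, 7.42, 9.18 and 7.44 on day 5. The groups did not overlap, and the difference was -1.47 (SE 0.38, adjusted p 0.0385 by limma). Ep300, the acetyltransferase recruited by CLOCK and BMAL1, was at 6.45, 7.23, 7.07 and 7.51 without injury and at 8.19, 8.23, 8.03 and 8.53 on day 5. It was higher by 1.18 (SE 0.22, adjusted p 0.0153 by limma) in groups that did not overlap. Of 17 clock-controlled output genes 0 were called, 7 had higher and 10 lower means, and the median was -0.35. This list shares Tef, Hlf, Nfil3, Ciart, Bhlhe40 and Bhlhe41 with the further clock regulators above, and Nfil3 alone was called without day 5 FSGS replicate 3. Besides Nfil3, the rule singled out Usp2, a ubiquitin protease, at -0.80 (SE 0.36, adjusted p 0.179 by limma) with groups that did not overlap.

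Markers of other cell types were measured beside the clock genes. Of 19 macrophage and monocyte markers 13 rose and 0 fell, led by Cx3cr1 (3.31), Mrc1 (3.19), C1qc (3.14) and Fcgr3 (3.07). Their summed linear level was 5303 to 10166 in the uninjured mice and 20001 to 50862 on day 5, and the median difference was 2.60. Of 20 proximal tubule markers 2 fell, the urate carrier Slc22a12 (-2.49) and the tyrosine enzyme Hpd (at least 1.16-fold lower, not well above background on day 5), and all 20 had lower means, with summed levels of 51692 to 62047 and 9662 to 45696 and a median difference of -1.24. Every marker of both lists was detected on at least 1 array. Omitting 1 mouse gave 0 to 19 macrophage and 0 to 7 tubule calls, the highest counts both without day 5 FSGS replicate 3. Among endothelial markers 0 of 12 were called, with summed levels of 1329 to 2392 and 1608 to 5463. All 12 had higher means on day 5, with a median difference of 0.63. By the rule for named genes, Plvap was higher by 0.94 (adjusted p 0.134 by limma), and Eng (0.0304) was not well above background in any uninjured mouse and detected in all 4 day 5 mice. Among lymphocyte markers 1 of 10 was called as higher (Cd3g), with sums of 346 to 634 and 767 to 1591. Among podocyte markers 1 of 6 was called as higher (Ptpro), with sums of 918 to 1576 and 863 to 2355. Day 5 means were higher for 9 of the 10 lymphocyte markers (median difference 0.71) and 3 of the 6 podocyte markers (-0.01).

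Nr1d1 followed the proximal tubule list across the mice and ran nearly opposite to the macrophage list. From lowest to highest, the 8 mice stood in the same order for Nr1d1 and for the mean log2 level of those markers, which was 9.26, 8.80, 9.76 and 7.67 in day 5 FSGS replicates 1 to 4 and 10.24, 10.48, 10.25 and 10.21 in the uninjured ones. This order combines the gap between the groups with differences inside each, some of them small. From highest to lowest, the macrophage list gave the order of Nr1d1 too, except that uninjured replicates 1 and 3 changed places. Per1 placed the mice in the order of neither list. Uninjured replicate 2 had the highest tubule level, the lowest macrophage level and a Per1 level within the day 5 range. The part of the tubule and macrophage RNA in the values of Nr1d1, Per1, Cry2 and Nfil3 was not tested.

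**Figure D4:**
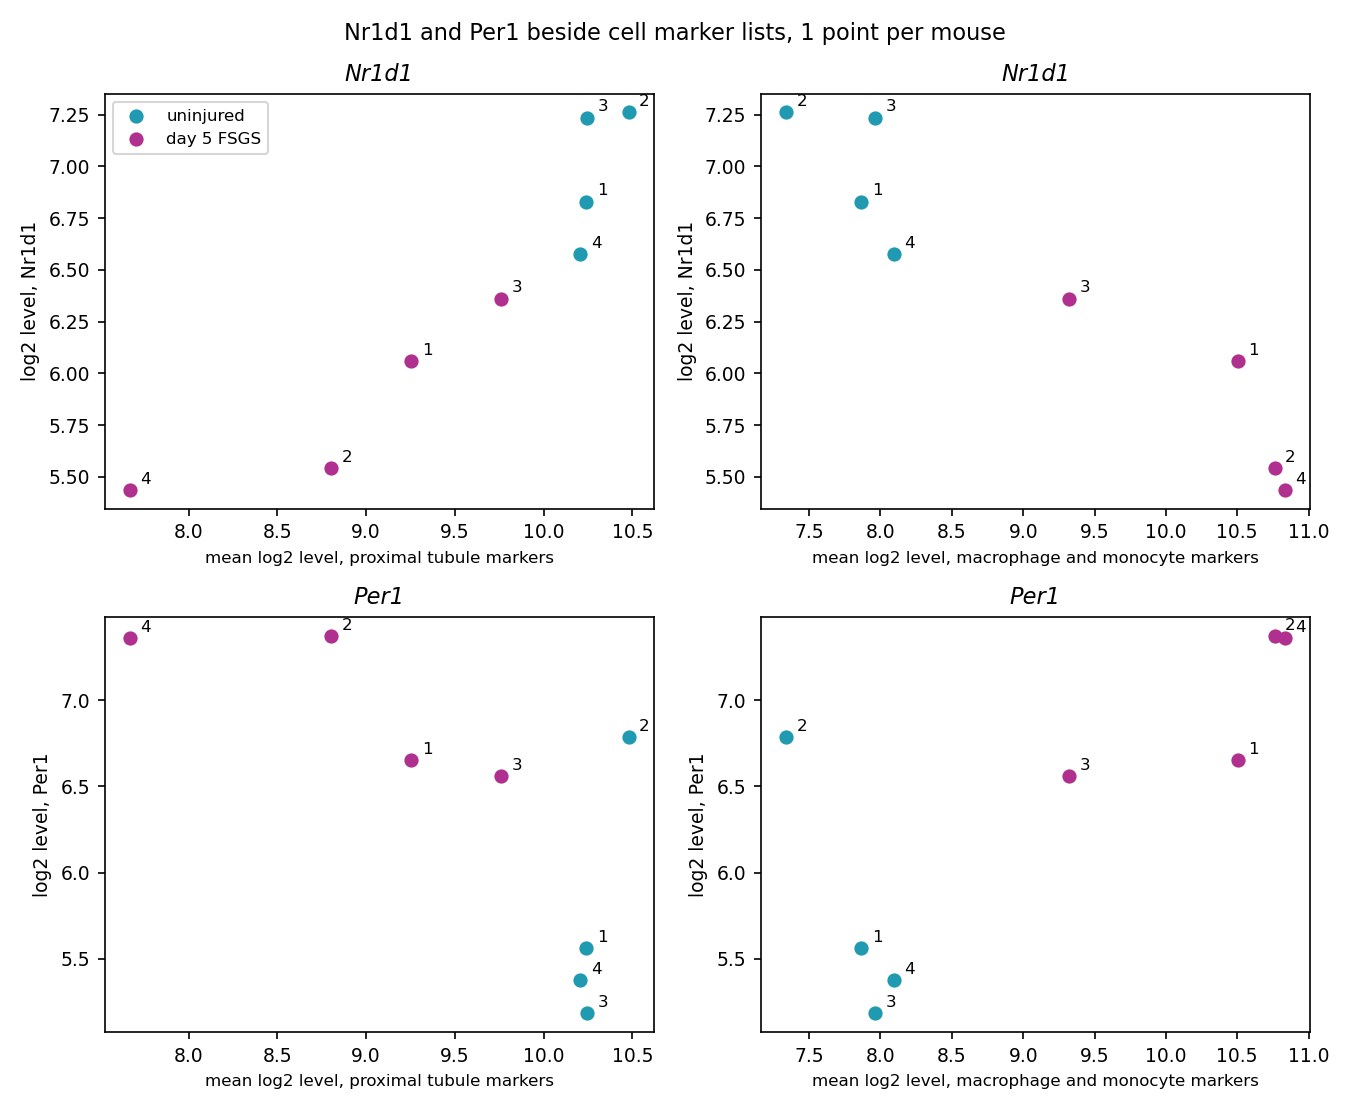
Log2 level of Nr1d1 (top) and Per1 (bottom) on the vertical axes against the mean log2 level of 20 proximal tubule markers (left) and 19 macrophage and monocyte markers (right), 1 numbered point per mouse. Nr1d1 and the tubule markers place the 8 mice in the same order. The macrophage markers place them in the reverse order, apart from uninjured replicates 1 and 3. Uninjured replicate 2 has a Per1 level of 6.78 at a macrophage level of 7.34.

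Per1 is also induced by glucocorticoids, and a list of 12 genes linked to these hormones was measured. It held Nr3c1, which encodes their receptor, beside genes that they induce. Of the 12, 0 were called, 7 had higher and 5 lower means, Nr3c1 among the lower, and the median difference was 0.07. Cdkn1a, a cell cycle inhibitor, was higher by 1.15 (SE 0.24, adjusted p 0.0201 by limma), and Klf9, a transcription factor, differed by -1.01 (SE 0.27, adjusted p 0.0438). Without day 5 FSGS replicate 3 both were called, at adjusted p values of 0.0016 and 0.00868, and 0 of the list without any other single mouse. The fit without day 5 FSGS replicate 3 called 1931 of all 16593 genes. The mean log2 level of the list was 9.31, 9.72, 8.96 and 8.99 in the uninjured mice and 9.35, 9.45, 9.08 and 9.54 on day 5. Uninjured replicate 2, the mouse with the highest uninjured Per1, was also the highest of all in this list.

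Of 19 immediate early and dissociation genes, which respond to stimuli and to the digestion of tissue, 1 was called and 17 had higher means, with a median difference of 0.73. Omitting 1 mouse gave 0 to 9 called, all higher, with 9 without day 5 FSGS replicate 3 and at most 1 otherwise. Among all 16593 genes, 1207 were called as higher without day 5 FSGS replicate 3. Klf2 rose by 1.74 (SE 0.18, adjusted p 0.00375 by limma), and the call was kept only without uninjured replicate 3 or without day 5 FSGS replicate 3, with adjusted p values of up to 0.0202 for the other omissions. The mean log2 level of the list was 8.13 to 8.45 in the uninjured mice and 8.50 to 9.36 on day 5. The part of these stimuli in the Per1 values was not tested.

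The genes most like Per1 and Nr1d1 were sought among 4097 genes detected on all 8 arrays. By Pearson correlation of the log2 level over the 8 arrays, those nearest to Per1 were Tsc22d3 (r = 0.965), Zdhhc7 (0.960) and Elovl5 (0.955), and those nearest to Nr1d1 were Gna11 (0.987), Nectin3 (0.987) and Slc16a9 (0.985). After the group means were removed, the nearest to Per1 were Lamp1 (r = 0.957), Nampt (0.950) and Selenos (0.946), and the nearest to Nr1d1 were Plpp6 (0.989), Ei24 (0.977) and Trim44 (0.957). The 2 ways of measuring likeness named no gene in common for either member. These values are the highest among the 4097 genes, over 8 arrays that share their amplification and normalization, and they are given as a description.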

How the data were processed

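Transcripts of ZsGreen-sorted CoRL were measured on 8 arrays, 4 per group, with groups taken from the labels. The authors deposited 2 tables of these arrays. The first holds a linear intensity per probe without normalization, beside a detection p-value set by the array's negative control beads. The second, deposited after the authors had stabilized its variance and quantile-normalized it in lumi (no version was given), holds a processed intensity on a linear scale and was an alternative. Of 25697 probes, 23978 have 1 gene symbol on the platform, 0 have several and 1719 are unnamed here. Slides and scans were not given in the sources used here.

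The deposited intensity was background-corrected by normexp from the detection p-value (offset 16), log2-transformed and quantile-normalized with limma 3.58.1 in R 4.3.3. Probes of a gene were averaged. lmFit and eBayes compared the groups over 16593 genes, and probes were fitted alone as well. Benjamini-Hochberg adjustment ran over all genes, or all named probes, and genes were called at 0.01. A gene was detected on an array when any probe had a detection p under 0.01. A bound on a fold takes, for a dim group, the lowest signal well above background on each array. The scripts were tested on simulated data. The most alike arrays shared 0.214% of their probe values. The groups share replicate numbers 1 to 4, but each number names different mice and the labels state no pairing.

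All members are named. From each other list, the text names called genes (up to 4 for each list, where a result of the clock turns on them) or, where none was called, the 2 largest differences among genes detected on every array of 1 group. Acta2, Rgs5, Nr2f2 and the undetected renin cell and smooth muscle genes are named for the check of the label, and Timeless, Prkaa2 and Ezh2 were chosen after their values were seen. Genes like Per1 and Nr1d1 are the 3 with the highest r. The members and lists were chosen with earlier results of these data known. Alternatives covered background correction, scaling, the second table, detection, probe choice, variance models, the methods' tests (the Bayesian formula rebuilt with a confidence of 10), a replicate block, the threshold and the omission of mice. The array's number of detected probes limits precision. Figures were drawn with matplotlib 3.10.9.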

Additional observations from a re-analysis of the deposited data

Results flagged for a closer look

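The level of Cry2 in day 5 FSGS replicate 3 was 7.00, far from the 5.71 to 5.90 of the other day 5 mice. Its gap to the nearest mouse was 0.859 of the group's range. The 10 clock genes in 2 groups gave 20 such checks, of which 1 stood out, and chance alone does so in about 1 of 20 groups. The same mouse had the highest day 5 level of the proximal tubule markers (mean log2 level 9.76) and the lowest of the macrophage markers (9.32). It also had the highest day 5 level of the endothelial markers (8.22) and of the podocyte markers (7.87). The part of these lists in the Cry2 value was not tested.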

How the results depend on the processing

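The direction of Per1, Nr1d1, Nr1d2, Cry2 and Arntl was kept under every alternative run. Of 207 alternative values of member differences, 184 kept direction and side of the threshold, 18 changed sign and 5 passed it, all for Nr1d1. Nr1d1 was the 1 member called with 75th percentile scaling (adjusted p 0.00709), only genes detected throughout a group (0.00979), array weights (0.00899), the methods' Bayesian test (0.00281) and a threshold of 0.05. Omitting single mice called 0 to 1 members. Over all alternatives its difference ran from -1.40 to -0.41 and its adjusted p from 0.00281 to 0.112. Scaling to a common median moved the median of all genes by -0.14 and to the 75th percentile by -0.49. Under the former Clock was 0.090, Per3 -0.22, Cry1 -0.16 and Dbp 0.018, and under the latter Per3 was -0.57 and Cry1 -0.51. Per3 was -0.0029 with an offset of 50, -0.0028 with array weights and -0.030 without uninjured replicate 1 and day 5 FSGS replicate 3. Omitting 1 mouse gave -0.35 to 0.020 for Per2, -0.091 to 0.17 for Per3, -0.026 to 0.13 for Cry1 and -0.57 to 0.45 for Dbp. The cause was not tested.

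All genes called numbered 383, against 200 with an offset of 50, 757 (719 higher) with median and 1025 (579 higher) with 75th percentile scaling, 943 with only genes detected throughout a group, 661 with trend and robust variances, 1454 with array weights, 1638 by the Bayesian test, 0 by the unequal-variance test (3822 at an unadjusted p under 0.05) and 2377 at 0.05. The study's test for the arrays was the Bayesian one, and it named the unequal-variance test under its general statistics. Omitting single mice gave 0 (without day 5 FSGS replicate 1) to 1931 (without day 5 FSGS replicate 3), and omitting uninjured replicate 1 and day 5 FSGS replicate 3 gave 1652. Of the members' probes, 3 passed 0.05 and 0 passed 0.01 (5 at an unadjusted p under 0.05).

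With the replicate block, 0 genes were called by limma (4879 at an unadjusted p under 0.05) and 0 members. Deviations of same-numbered mice correlated at 0.12, -0.13, -0.15 and 0.18. Such values cannot settle whether same-numbered mice shared a processing step, and the labels state no pairing. Dim members (Per3, Cry1, Arntl) lay at or near background, which limits their differences. Nr1d1 was not detected in day 5 FSGS replicate 4, which limits the size of its difference.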
